A study of Mus musculus with 2 samples.

Results

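The voltage-gated calcium channel subunits described here were 10 genes: the L-type pore genes Cacna1c, Cacna1d and Cacna1s, the T-type pore genes Cacna1h and Cacna1g, the beta subunit genes Cacnb2, Cacnb3 and Cacnb1, and the alpha2delta subunit genes Cacna2d1 and Cacna2d2. They were chosen by symbol, and all 10 were found among the 43346 genes of the deposited tables. The samples were whole hearts of healthy mice of strain B6NTac;B6NCrl/Lap, taken at postnatal day 0 and pooled over males and females. There was 1 group, with 2 biological replicates from independent isolates, and both carried the same donor label. Replicate 1 pooled 15 mice, and the labels leave out how many replicate 2 pooled. RNA was depleted of ribosomal RNA and sequenced, so intron-containing RNA was read beside spliced RNA. No treatment, genotype or second age was compared, so the values below are levels and their spread between the replicates, which may be technical or biological.

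A voltage-gated calcium channel is built around a pore-forming alpha1 subunit, which senses membrane voltage and passes calcium. In L-type channels a cytoplasmic beta subunit and an alpha2delta subunit, which is anchored at the outer face of the membrane, raise the number of channels at the surface and tune their gating. T-type channels open at more negative voltages and conduct without needing either auxiliary subunit. In heart muscle the L-type current triggers calcium release from the sarcoplasmic reticulum through the ryanodine receptor, while T-type current is known from fetal and newborn myocardium and from pacemaker tissue.

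The libraries held 69946215 and 73615802 expected counts over genes in replicates 1 and 2, where an expected count is the estimated number of sequenced fragments from a gene. TPM, the level used below, divides these counts by transcript length and scales the result to the same sum in each library. Marker lists, chosen with earlier results of these data known, were read beside the heart label. Cardiomyocyte genes (Actc1, Myh6, Tnnt2, Ryr2) summed to 7522 and 7464 TPM in replicates 1 and 2, and all 4 were detected. Smooth muscle genes summed to 325 and 654 TPM, with Tagln, an actin-binding protein, at 16.8 and 160 TPM. Bladder epithelium genes summed to 5.08 and 59.5 TPM, and lymphocyte and thymus genes to 4.37 and 0.01 TPM. Skeletal muscle genes summed to 47.8 and 114 TPM, most of it Acta1, and the regulators Myod1, Myog and Myf5 had 0 counts in both replicates. Of the other marker lists, sinus node genes summed to 5.68 and 3.20 TPM, neuron and Schwann genes to 2.66 and 3.08, and adrenal chromaffin genes to 0.04 and 1.16. In such bulk tissue, fewer cells of a type and less RNA per cell cannot be told apart.

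Cacna1c, which encodes the main L-type pore of heart muscle, is the gene whose transcript forms are followed furthest below, so its alternative sequences are shown first. It lies on GRCm38 chromosome 6, from 118587240 to 119196418 on the minus strand (ENSMUSG00000051331.10). GENCODE M21 places 3 pairs of coding exons of equal length side by side in it, and most transcripts carry 1 exon of each pair. The sequences are the reference transcripts of GENCODE M21 on GRCm38, written 5′ to 3′ on the minus strand, and capitals mark the positions at which the exons of a pair differ. The exons of the 104-nucleotide pair lie at chr6:118742265-118742368 (upstream) and chr6:118741871-118741974 (downstream), differ at 32 positions and never share an annotated transcript.
104-nucleotide upstream exon: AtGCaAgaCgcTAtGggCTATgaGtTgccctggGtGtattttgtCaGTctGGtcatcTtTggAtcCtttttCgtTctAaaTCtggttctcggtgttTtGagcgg
104-nucleotide downstream exon: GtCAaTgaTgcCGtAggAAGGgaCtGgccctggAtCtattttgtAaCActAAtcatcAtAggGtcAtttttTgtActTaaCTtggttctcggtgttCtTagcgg
The exons of the 60-nucleotide pair lie at chr6:118674555-118674614 and chr6:118674346-118674405 and differ at 25 positions.
60-nucleotide upstream exon: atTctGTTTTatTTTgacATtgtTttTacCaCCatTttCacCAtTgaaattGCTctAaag
60-nucleotide downstream exon: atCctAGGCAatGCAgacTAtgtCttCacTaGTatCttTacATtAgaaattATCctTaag
The exons of the 84-nucleotide pair lie at chr6:118638427-118638510 and chr6:118637730-118637813 and differ at 35 positions.
84-nucleotide upstream exon: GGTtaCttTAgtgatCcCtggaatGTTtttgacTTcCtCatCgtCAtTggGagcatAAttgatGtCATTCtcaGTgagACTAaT
84-nucleotide downstream exon: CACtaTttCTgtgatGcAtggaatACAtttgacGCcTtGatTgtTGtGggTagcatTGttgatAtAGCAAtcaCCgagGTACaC
The identity within a pair was 69.2% for the 104-nucleotide exons and 58.3% for each of the other pairs, so these short stretches can be swapped for a related sequence.

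The 10 genes spanned a wide range of levels. A TPM of at least 1 in both replicates, the limit used for detection, was reached by 8 of the 10. Over all genes 24.2% reached it, and over protein-coding genes 47.1%. Those that did not were Cacna1d and Cacna1s. By mean TPM the order was Cacna1c, Cacnb2, Cacna1h, Cacna1g, Cacna2d2, Cacna2d1, Cacnb3, Cacna1s, Cacnb1 and Cacna1d. Of the 9 neighbouring pairs in this order, 4 had replicate values that did not overlap. Cacna1c lay apart from Cacnb2, Cacna2d1 from Cacnb3, Cacnb3 from Cacna1s, and Cacnb1 from Cacna1d. The gap of Cacnb3 over Cacna1s was narrow in replicate 1, at 3.64 against 3.58 TPM. Their deposited intervals overlapped there, at 3.39 to 3.85 and 3.08 to 4.09 TPM. From Cacnb2 down to Cacna2d1 no neighbours were separated. The members summed to 91.4 and 102.7 TPM in replicates 1 and 2.

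**Figure D1:**
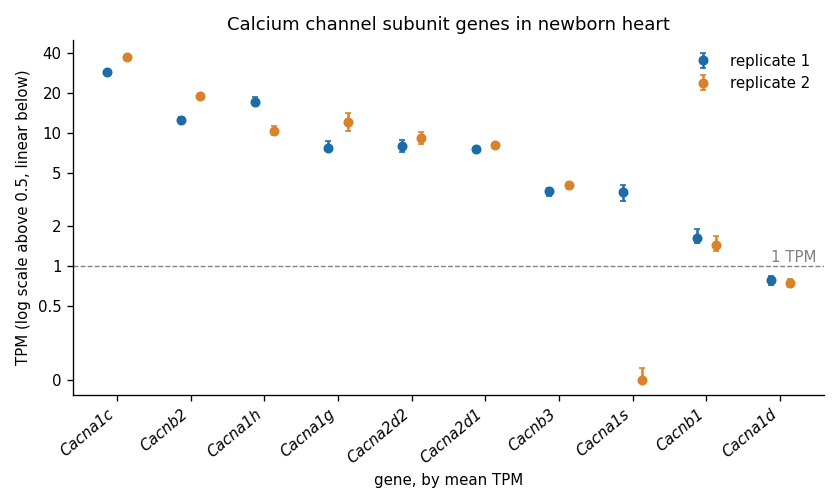
TPM of each gene (vertical axis, logarithmic above 0.5 and linear below) in replicate 1 and replicate 2, with the genes ordered by mean TPM and bars spanning the interval of TPM that the authors deposited for each library. Cacna1c lies above the rest in both replicates, and Cacna1s is at 3.58 TPM in replicate 1 and 0 in replicate 2.

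Among L-type pores Cacna1c was the predominant gene. Cacna1c was at 28.7 TPM in replicate 1 and 37.6 TPM in replicate 2, from 23490 and 29999 counts. Cacna1d, the pore of pacemaker and atrial L-type current (ENSMUSG00000015968.12, chromosome 14, 30039939 to 30491455), was at 0.78 and 0.75 TPM, from 726 and 697 counts. Its counts were well above 0 and alike in the 2 libraries, although it stayed under the detection limit. Cacna1c made up 86.8% of L-type pore TPM in replicate 1 and 98.0% in replicate 2. Over transcripts with a complete coding sequence it made up 96.9% and 97.4%. By gene TPM its log2 ratio over Cacna1d was 5.03 and 5.47. The rule for unequal levels asked that the log2 ratio, with 0.1 TPM added to each value, kept 1 sign and in each replicate exceeded 2.15, the 95th percentile of the absolute difference of single genes between the replicates. This pair was called, and it was the only called pair of 9 that kept its call with the 99th percentile, 4.85, as the limit. The sinus node marker Hcn4, a pacemaker channel, was at 3.37 and 2.31 TPM in replicates 1 and 2. The other sinus node markers were lower, with Tbx3 at 1.72 and 0.86 TPM, Shox2 at 0.19 and 0.03 TPM and Isl1 at 0.40 and 0 TPM. The part of nodal cells in the level of Cacna1d was not tested.

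Cacna1s, the pore and voltage sensor of skeletal muscle (ENSMUSG00000026407.13, chromosome 1, 136052750 to 136119822), was read in replicate 1 alone. It had 219 counts and 3.58 TPM in replicate 1, against 0 counts in replicate 2. By counting error a count of 0 allows up to 3 counts. With 3 in place of 0, and 219 taken as exact, its share of the library's counts was 76.8-fold higher in replicate 1. Of the 219 counts, 188 were assigned to Cacna1s-205, a retained-intron transcript of 795 nucleotides, which held 98.2% of the gene's TPM. The remaining 31.0 were on Cacna1s-206, whose annotated coding sequence is incomplete, and the transcripts with a complete coding sequence were at 0 in both replicates. The other skeletal muscle markers did not move one way. Myh3, the embryonic skeletal myosin, had 222 and 0 counts in replicates 1 and 2, and Ryr1, the skeletal ryanodine receptor, had 25 and 9. The fetal myosin gene Myh8 had 1076 and 456 counts and Tnnc2, a troponin of fast muscle, 55 and 60. Acta1, the skeletal actin that newborn heart also expresses, had 5292 and 14126 counts, and the part of skeletal muscle tissue in these values was not tested. The pair Cacna1c and Cacna1s was called unequal, with a log2 ratio of 2.97 in replicate 1, where both had counts. The log2 ratio of Cacna1d over Cacna1s was -2.06 in replicate 1, while in replicate 2 only Cacna1d had counts, so the pair was not called.

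The T-type pores were the next pore class, and neither gene led the other in both replicates. Cacna1h (ENSMUSG00000024112.12, chromosome 17, 25374285 to 25433783) had 17.2 TPM in replicate 1 but 10.3 TPM in replicate 2. Cacna1g (ENSMUSG00000020866.13, chromosome 11, 94408391 to 94474198) was at 7.71 and 12.2 TPM. Their log2 ratio was 1.15 and -0.23, so the order turned round between the libraries and the pair was not called. In counts the genes hardly moved, with 6718 and 6970 for Cacna1h and 5787 and 5448 for Cacna1g. The difference lay in the effective length, the mean length over which a gene's counts are spread given its estimated transcript mixture, which was 3688 and 6082 nucleotides for Cacna1h and 7109 and 4049 for Cacna1g. In replicate 1, the retained-intron transcript Cacna1h-208 took 922 counts and 5.44 TPM, and the 551-nucleotide fragment Cacna1h-206 took 134 counts and 4.83 TPM. Both were at 0 in replicate 2. In replicate 2, noncoding transcripts of Cacna1g took 244 counts and 6.05 TPM, against 35.0 counts and 0.65 TPM in replicate 1. With only transcripts that hold a complete coding sequence, Cacna1h was at 6.71 and 7.85 TPM and Cacna1g at 7.05 and 6.10 TPM. On that scale the T-type pores were close to each other, with log2 ratios of -0.07 and 0.36. Together they summed to 13.8 and 13.9 TPM, against 25.0 and 28.4 TPM for the L-type pores.

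Cacnb2, the beta subunit best known from heart muscle, stood highest of the beta subunit genes. Cacnb2 (ENSMUSG00000057914.11, chromosome 2, 14603088 to 14987908) was at 12.4 TPM in replicate 1 and 19.0 TPM in replicate 2, from 4040 and 5165 counts. Cacnb3, known from brain and smooth muscle (ENSMUSG00000003352.9, chromosome 15, 98630840 to 98644529), was at 3.64 and 4.04 TPM. Cacnb1, the beta subunit of skeletal muscle (ENSMUSG00000020882.13, chromosome 11, 98001508 to 98023034), was at 1.62 and 1.44 TPM, from 334 and 285 counts. The 3 genes did not overlap in either replicate. Cacnb2 was called above Cacnb1, with log2 ratios of 2.87 and 3.63. Over Cacnb3 its ratio was 1.75 and 2.20, past the limit in replicate 2 alone. Cacnb1 and Cacnb3 were not called, at -1.12 and -1.43. Over transcripts with a complete coding sequence Cacnb2 was at 7.67 and 8.18 TPM, and its ratio over Cacnb3 was 1.06 and 1.00. The lead of Cacnb2 therefore shrank on that scale, because 4.78 and 10.8 of its TPM lay in retained-intron and other noncoding transcripts.

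The alpha2delta subunit genes were at similar TPM but differed in what carried it. Cacna2d1 (ENSMUSG00000040118.11, chromosome 5, 15934691 to 16374511) was at 7.62 TPM in replicate 1 and 8.16 TPM in replicate 2, from 5739 and 6442 counts. Cacna2d2 (ENSMUSG00000010066.11, chromosome 9, 107399612 to 107529343) was at 8.01 and 9.25 TPM, from 2318 and 1372 counts. By gene TPM their log2 ratio was -0.07 and -0.18. The leading transcript of Cacna2d2 was Cacna2d2-207, a noncoding transcript of 671 nucleotides, which held 48.5% and 41.0% of its TPM with 157 and 161 counts. In transcripts with a complete coding sequence, Cacna2d1 was at 7.63 and 8.17 TPM and Cacna2d2 at 4.13 and 2.49 TPM. There Cacna2d1 was the higher gene in both replicates, with log2 ratios of 0.87 and 1.67, inside the limit of 2.15. The sign of this comparison thus turned with the transcripts counted.

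By subunit class the order was the same in gene TPM and in complete coding transcripts except for T-type pores and beta subunits in replicate 2. L-type pores took 36.8 ± 0.817% of the members' TPM, T-type pores 24.6 ± 3.83%, beta subunits 21.6 ± 3.12% and alpha2delta subunits 17.0 ± 0.110% (SD, n = 2). The small SD of the L-type share covers opposite moves of its genes. Cacna1s was at 3.58 and 0 TPM and Cacna1c at 28.7 and 37.6 TPM in replicates 1 and 2. In replicate 2 beta subunits, at 24.4 TPM, lay above T-type pores, at 22.5. Counting complete coding transcripts alone, the shares were 41.0 ± 2.28%, 21.3 ± 0.550%, 20.4 ± 0.0786% and 17.3 ± 1.81%. In expected counts, which are not divided by length, beta subunits took 11.0%, below alpha2delta subunits at 14.8%, so the order of these classes turned. A share of TPM is a share of transcripts and says nothing of the subunits in assembled channels.

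Noncoding transcripts carried a sizeable part of the TPM of some members and none of others. Protein-coding transcripts held 74.8% of the members' TPM in replicate 1 and 65.0% in replicate 2, but 91.9% and 89.8% of their counts, since short transcripts gain weight when counts are divided by length. For Cacna1c the coding share of TPM was 84.4% and 73.7%, for Cacnb2 61.6% and 43.1%, and for Cacna2d2 51.6% and 26.9%. For Cacna1d, Cacnb3, Cacnb1 and Cacna2d1 the listed transcripts were coding except for the noncoding entries of Cacnb1, which were at 0, so their level did not change. Of 98 member transcripts, 34 were above 0 TPM in both replicates, 31 in 1 replicate alone and 33 in neither. No share over all transcripts stands beside these counts, so they are not read as a trait of the members.

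**Figure D2:**
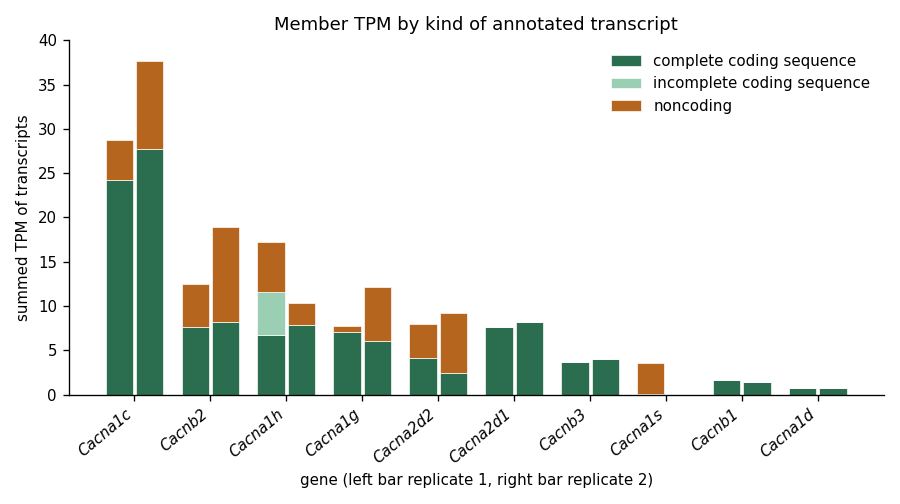
Summed TPM of each gene's transcripts (vertical axis), stacked by kind of annotated transcript, with the left bar of each pair for replicate 1 and the right bar for replicate 2. The complete coding part of Cacna1h, 6.71 and 7.85 TPM, and of Cacna1g, 7.05 and 6.10 TPM, differs less between the replicates than the whole bars do.

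The members differed between the replicates by varying amounts. Differences are log2 ratios of replicate 2 over replicate 1, centred on the median gene, over the genes whose mean reached 1 TPM. Of the 9 members at that level, 1 was 2-fold or more apart, namely Cacna1s, against 19.0% of all such genes. It was lower in replicate 2, as were 8.90% of all such genes, and no member was 2-fold higher there, against 10.1%. In expected counts it was again 1 of 9, against 14.5%. The median difference of the 9 was 0.12 in TPM and -0.02 in counts, beside 0 for all genes by the centring. In TPM Cacna1h differed by -0.75 and Cacna1g by 0.63, and in counts by -0.02 and -0.16. Cacna1c differed by 0.37 and Cacnb2 by 0.58 in TPM, and by 0.28 and 0.28 in counts. In complete coding transcripts their differences were 0.17 and 0.07. Both were higher in replicate 2, the library in which smooth muscle genes summed to 654 TPM against 325 in replicate 1. Within that sum Acta2 was at 280 and 395 TPM and Myh11 at 1.01 and 25.0 TPM in replicates 1 and 2. Cacnb3, known also from smooth muscle, differed by 0.12 in TPM and 0.18 in counts. The part of smooth muscle in these differences was not tested. Cacna2d2 was lower in replicate 2 in counts, by 0.83 on the log2 scale, and higher by 0.18 in TPM. Of the 8 with counts in both replicates, 3 had effective lengths 1.5 times or more apart, namely Cacna1h, Cacna1g and Cacna2d2, against 12.4% of all such genes.

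**Figure D3:**
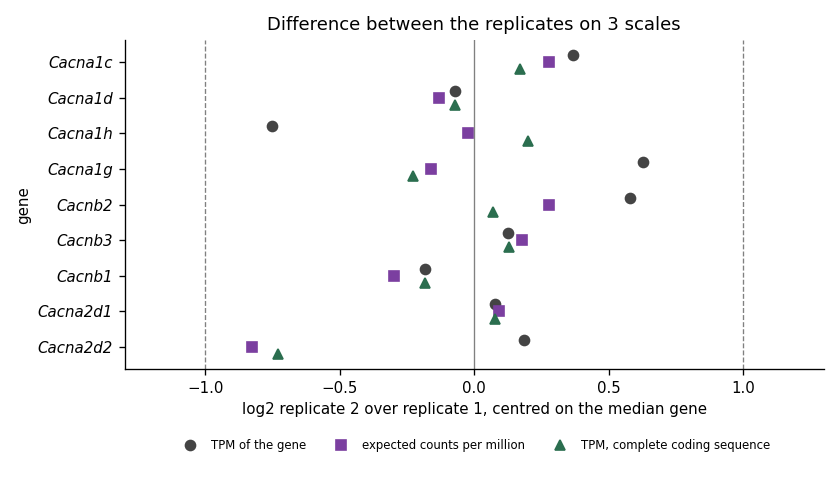
Log2 difference of replicate 2 over replicate 1 (horizontal axis) for 9 members on 3 scales, the TPM of the gene, expected counts scaled by library and the TPM of transcripts with a complete coding sequence, with dashed lines at a 2-fold difference. Cacna1s is left out because it had 0 counts in replicate 2. Cacna1h lies at -0.75 in TPM and at -0.02 in counts.

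The same transcript led in both replicates for 8 of the 9 members at a mean of 1 TPM, against 66.0% of genes with at least 2 transcripts, and the exception was Cacna1s, which had no counts in replicate 2. No member had a transcript at 80% or more in both replicates, against 29.6% of such genes. For Cacna1c the leading form was Cacna1c-212, of 7507 nucleotides, with 38.9% and 31.8% of TPM in replicates 1 and 2. Next was Cacna1c-207, of 13162 nucleotides, with 24.4% and 23.3% of TPM, and it held more counts than Cacna1c-212, with 9530 and 12514 against 8510 and 9548. The T-type gene Cacna1h was led by Cacna1h-205, at 38.6% and 75.3%, and Cacna1g by Cacna1g-205, at 34.5% and 19.6%. Cacna2d1-206 held 90.3% and 61.8% of Cacna2d1, Cacnb1-202 63.4% and 87.2% of Cacnb1, Cacnb3-201 61.4% and 100% of Cacnb3, and Cacnb2-203 36.4% and 33.0% of Cacnb2. Cacna1d was assigned wholly to Cacna1d-201 in replicate 1 and wholly to Cacna1d-202 in replicate 2, although its counts were nearly equal. The 2 libraries thus gave Cacna1d opposite forms, and what lies behind this was not tested.

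By the TPM assigned to whole transcripts, Cacna1c coding forms began mainly at the distal annotated start. The 4 coding transcripts that start between 119196231 and 119196418 on chromosome 6 held 18.2 TPM in replicate 1 and 21.3 TPM in replicate 2. The 12 that start between 119107975 and 119108573 held 5.62 and 6.05 TPM. The distal start thus took 76.0 ± 1.34% of the coding TPM and the proximal start 22.5 ± 0.957% (SD, n = 2), a gap far wider than the spread between the replicates. Reads at the first exons were not used, so these shares follow the assignment of fragments to whole transcripts. Of the 18050 and 22484 counts of the distal start, 9530 and 12514 were on Cacna1c-207, of 13162 nucleotides. The RefSeq promoters near these starts, each from 250 bases before to 50 after the RefSeq start, are shown because the assigned TPM differed between the starts. They are from the GRCm38.p6 table, on the minus strand and written 5′ to 3′, and capitals mark GGGCGG where it was found on either strand.
Cacna1c distal promoter, chr6:119196360-119196659: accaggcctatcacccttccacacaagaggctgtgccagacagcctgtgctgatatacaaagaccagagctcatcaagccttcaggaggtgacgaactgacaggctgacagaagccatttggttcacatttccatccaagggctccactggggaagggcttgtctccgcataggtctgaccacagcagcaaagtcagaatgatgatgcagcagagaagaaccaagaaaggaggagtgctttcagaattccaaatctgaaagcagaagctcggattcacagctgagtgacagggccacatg
Cacna1c proximal promoter, chr6:119108446-119108745: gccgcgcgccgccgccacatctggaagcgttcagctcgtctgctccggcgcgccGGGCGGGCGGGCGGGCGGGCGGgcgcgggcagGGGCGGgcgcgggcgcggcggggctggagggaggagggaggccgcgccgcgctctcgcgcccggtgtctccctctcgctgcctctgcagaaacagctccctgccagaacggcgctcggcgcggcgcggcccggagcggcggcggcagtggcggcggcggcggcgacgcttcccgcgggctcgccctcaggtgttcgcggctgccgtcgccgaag
The distal window, beside the start with the higher TPM, held 3 CG dinucleotides and a GC content of 51.3%, while the proximal window held 57 and 81.3%. The median over 32851 RefSeq promoter windows was 7 and 52.7%. The letters GGGCGG, searched on both strands with overlaps counted, were found 6 times in the proximal window and not in the distal one, and in 35.7% of all windows. The letters TATAAA and AGATAA were found in neither window, and in 13.6% and 11.2% of all windows. CANNTG was found 3 times in the distal and 2 times in the proximal window, and in 72.3% of all windows. A match of letters is not a bound site, and the lack of one says only that the letters are not in the window.

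The alternative exons printed above were used unequally in the 104-nucleotide pair and about equally in the 60-nucleotide pair. Transcripts with the upstream 104-nucleotide exon held 20.5 and 21.3 TPM in replicates 1 and 2, and those with the downstream exon 3.70 and 6.38 TPM. The upstream exon thus took 80.8 ± 5.49% (SD, n = 2). In GENCODE all 4 distal-start coding transcripts carry the upstream exon, so its share and the share of the distal start are tied by the annotation and are not independent values. Of the 60-nucleotide pair, transcripts with the upstream exon alone took 51.3 ± 1.95% and those with the downstream exon alone 46.2 ± 0.372%. Of the 84-nucleotide pair, the downstream exon alone took 53.2 ± 8.05%, the upstream exon alone 36.7 ± 3.36%, and both exons together 10.2 ± 4.69%. Cacna1c-212 carries the upstream 60-nucleotide and the downstream 84-nucleotide exon, and Cacna1c-207 the other member of each pair, so these shares follow the split between the 2 leading transcripts. Reads over the exons themselves were not used here. A further coding exon of 33 nucleotides at chr6:118630399-118630431 was in 91.7% and 98.5% of the spanning TPM, and one of 75 nucleotides at chr6:118715903-118715977 in 1.73% and 4.80%.

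**Figure D4:**
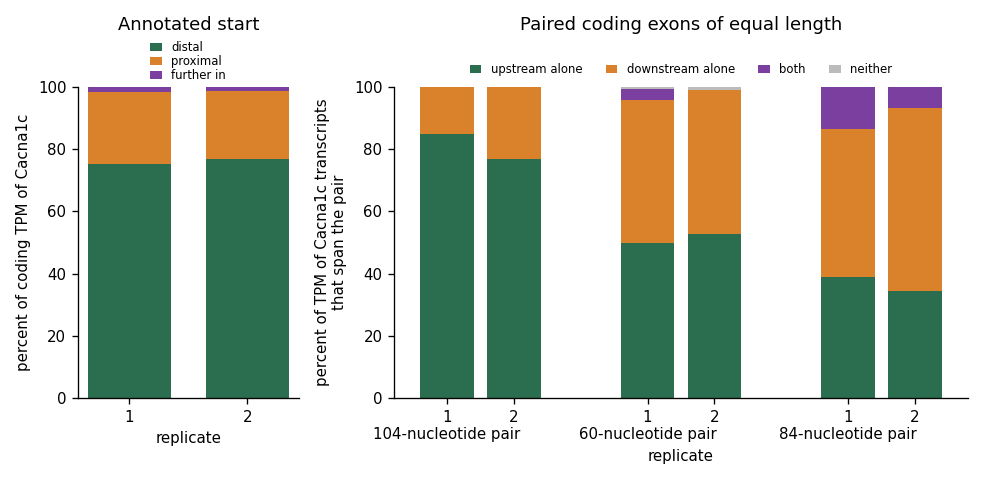
Percent of Cacna1c TPM by annotated start of coding transcripts (left) and by the exons carried from each pair of equal length (right), with 1 bar for each replicate. The distal start takes 75.1% and 77.0%, and the upstream 104-nucleotide exon 84.7% and 77.0%, in replicates 1 and 2.

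Some starts and exons of other members were uneven between the libraries. Cacnb2 began at 14604306 on chromosome 2 for 59.1% and 76.4% of its coding TPM and at 14824092 for 40.5% and 23.6%. The RefSeq windows near these starts held 35 and 4 CG dinucleotides. A 54-nucleotide exon of Cacna1g at chr11:94423671-94423724 was in 74.2% and 39.2% of the spanning TPM. A 21-nucleotide exon of Cacna2d1 was in 94.4% and 61.9%, and a 21-nucleotide exon of Cacna2d2 in 58.1% and 90.8%. These shares differed by more than those of the Cacna1c start did, each of which sums several transcripts. Single Cacna1c transcripts were uneven too, with Cacna1c-217 at 0.01 and 3.75 TPM and Cacna1c-202 at 2.34 and 0 TPM. The starts of Cacna1h, Cacna1g, Cacnb1, Cacna2d1 and Cacna2d2 were even, with 100% of coding TPM in the same group of neighbouring starts in both replicates. For Cacna2d1, Cacnb3 and Cacna1d the transcript lengths in GENCODE M21 differ from those of the deposited tables, so their exon content in the authors' annotation may differ too.

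The rest of the channel family was low. Of 16 other pore, beta, alpha2delta and gamma subunit genes, 1 was detected in both replicates, 11 stayed under 0.1 TPM, and 7 had 0 counts in both. The detected gene was Cacng6, a gamma subunit gene, at 3.13 and 5.62 TPM in replicates 1 and 2. Cacng7, another gamma subunit gene, was at 1.65 and 0.50 TPM, with 334 and 107 counts. Cacna1a, the P/Q-type pore of neurons, was at 0.34 and 2.27 TPM with 157 and 383 counts, and Cacnb4, a beta subunit of brain, at 0.19 and 0.18 TPM. The deposited posterior means were higher, at 2.09 and 4.78 TPM for Cacna1a and 4.78 and 7.75 TPM for Cacnb4. Cacng1, the gamma subunit of the skeletal muscle channel, had 38 and 0 counts, so like Cacna1s it was read in replicate 1 alone. The genes at 0 counts were Cacna1i, Cacna2d3, Cacna2d4, Cacng2, Cacng3, Cacng5 and Cacng8, although the posterior means of the T-type pore gene Cacna1i were 1.27 and 1.42 TPM. The other genes under 0.1 TPM were the neuronal and retinal pores Cacna1b, Cacna1e and Cacna1f, and Cacng4, of which Cacna1b had posterior means of 0.63 and 0.69 TPM. The family outside the members summed to 5.78 and 8.68 TPM, or to 14.6 and 21.4 TPM by posterior means, and the members to 91.4 and 102.7 TPM, or to 92.2 and 103 TPM by posterior means.

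Regulators and partners of the channel varied widely in level. Of 26 listed genes, 18 were detected in both replicates, against 24.2% of all genes and 47.1% of protein-coding genes. Among those with the highest mean TPM were Nedd4, a ubiquitin ligase, at 129 and 118 TPM in replicates 1 and 2, Calm3, which encodes calmodulin, at 109 and 90.4 TPM, and Prkaca, the catalytic subunit of protein kinase A, at 89.1 and 63.2 TPM. The RGK proteins are small GTPases that inhibit L-type current through the beta subunit. Rrad, the RGK gene with the highest level, was at 44.9 and 84.0 TPM. Gem was at 2.61 and 2.99 TPM, Rem1 at 1.26 and 3.30 TPM and Rem2 at 0.20 and 0.01 TPM. Rrad was thus above Cacna1c and above every beta subunit gene in both replicates, and the GTPase genes did not move alike between the replicates. The adaptors Stac2 and Stac3, of which Stac3 is needed by the skeletal muscle channel, were under 0.1 TPM in both. Of the 19 regulators at a mean of 1 TPM, 1 was 2-fold or more higher in replicate 2, namely Rem1, and 2 were 2-fold or more lower, against 10.1% and 8.90% of all such genes. The lower genes in TPM, named after their values were seen, were Akap7, an anchoring protein of protein kinase A, and Jph1, a junctophilin. In counts Akap7 went the other way, with 591 in replicate 1 and 1321 in replicate 2. Its effective length was 324 and 2021 nucleotides. Jph1 was lower in counts too, with 1656 and 782. The median difference between the replicates over the 19 regulators at a mean of 1 TPM was -0.15 in TPM and -0.0049 in counts.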

How the data were processed

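Total RNA above 200 nucleotides from 2 pools of newborn mouse hearts was sequenced as stranded paired reads of 101 nucleotides, per the labels. The deposited notes name the assembly mm10 and the annotation GENCODE M4, and the column names are those of RSEM. For the aligner, its settings and program versions, the sources used here give nothing. The authors deposited expected counts, which estimate how many fragments came from each gene or transcript and are not scaled between libraries. TPM as deposited is the expected count over effective length, scaled to a fixed sum over all entries, and posterior mean TPM was deposited beside them. Detection was also computed on FPKM, scaled by the authors to length and depth. Per the file headers, each transcript also has its percent of the gene's TPM. The level of the deposited TPM intervals is likewise unstated there.

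Symbols, biotypes, starts and exons were read from GENCODE M21 (GRCm38) through identifiers stripped of their version. All 10 members and 98 transcripts matched, and 90 of the transcripts kept their length. Promoters came from RefSeq (GRCm38.p6), where 8 of the 10 members had an entry. A complete coding sequence means a protein-coding transcript with neither end marked as not found. Starts within 1000 nucleotides formed 1 cluster. No exon of a member overlapped a gene of the opposite strand above 0.07 TPM. A single group allowed no comparison of conditions, so there is no p-value. Members, lists and rules were chosen with earlier results of these data known.

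Named genes were all members, other family genes at 0.1 TPM or more, and of the regulators the 4 of highest mean TPM, the RGK genes and those under 0.1 TPM. One gene that the rule names is not reported here. Other genes named, namely the markers and the remaining family genes, give context. The count of 2-fold differences was tested on simulated data with counting error alone and the same effective length in both libraries. It recovered 100% of 200 genes changed 4-fold and called 0.0261% of unchanged genes. That setting covers neither spread between animals nor a change of transcript mixture. Intervals and the floor of 3 counts cover counting error only. Tools were Python 3.11.15, numpy 2.4.6, pandas 2.3.3 and matplotlib 3.10.9, with scaling factors from edgeR 4.0.16 and DESeq2 1.42.0 (R 4.3.3), for which expected counts were rounded. The alternatives covered thresholds, units, estimates, pseudocounts, scaling and single replicates.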

Additional observations from a re-analysis of the deposited data

How the results depend on the processing

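No paired analysis was possible because the samples formed 1 group. The alternative with complete coding transcripts was chosen after the data were seen. Detection of 8 members held within 1.5 times under all 7 alternatives, and the 8 leading transcripts shared by both replicates became 7 in protein-coding transcripts alone, while leaving out a replicate does not bear on that count. The call of unequal pairs, 3 of 9, became 5 in expected counts and 1 when the 99th percentile set the limit, and ranged from 3 to 5 with a replicate left out. Cacna1h over Cacna1g, 0.46 on the mean log2 scale, ranged from -0.23 to 1.15 with a replicate left out. Cacna1d over Cacna1s, 0.51, was -0.28 with a pseudocount of 1 TPM, and ranged from -2.06 to 3.09 with a replicate left out. Cacna2d1 over Cacna2d2, -0.12, was 1.77 in counts and 1.27 in complete coding transcripts. No member was 2-fold apart in complete coding transcripts, against 1 otherwise, because Cacna1s is at 0 there. In expected counts the L-type, beta and alpha2delta shares of the members were 51.0%, 11.0% and 14.8%. The L-type and alpha2delta shares were 41.0% and 17.3% in complete coding transcripts, and the alpha2delta share was 16.9% with posterior mean TPM. The coding share of 69.9% of TPM was 90.9% of counts. TPM rescaled over nuclear protein-coding genes raised every level, with Cacna1c at 125 in place of 33.2. The cause of these moves was not tested, except where dividing by length or leaving out transcripts is itself the change. The members with the fewest counts were Cacna1s, with 219 and 0, and Cacnb1, with 334 and 285 in replicates 1 and 2.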
